A study of Mus musculus with 3 samples.

Results

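Solute carrier genes encode the membrane proteins that move sugars, amino acids, ions, metals and metabolites into and out of cells and mitochondria. They were taken here as all mouse genes whose official symbol begins with Slc directly followed by a digit, apart from the cardiac sodium-calcium exchanger gene Slc8a1. Of 383 annotated genes of that kind, 155 held at least 1 CELF1 CLIP-seq cluster and 228 held none. Those 155 genes carried 1059 of the 72222 clusters and were among the 8037 genes with a cluster in the whole series. One of them, Slc9a3r2, encodes a scaffold protein and not a carrier, and it had 1 cluster, in heart. Slc4a1ap, whose product is not a carrier either, was counted with the Slc4 family and carried 2 clusters in heart, 1 in muscle and 1 in C2C12.

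CLIP-seq fixes a protein to the RNA it touches with UV light, here at 254 nm, and sequences the RNA that comes down with the protein. The study mapped CELF1 (also named CUGBP1) in 3 sources, with 1 library each. Heart was ventricle and muscle was tissue of a type that the labels do not name, both from 16-week-old mice of C57/BL6 background, and C2C12 is an established line of mouse myoblasts, the dividing precursors of muscle fibres. All libraries used the anti-cugbp1 antibody clone 3B1 against the cells' own protein. A cluster is a stretch of a gene with more CLIP reads than a Poisson model of the gene's expression and unspliced length predicted. With 1 library for each source no value has a replicate, so intervals and tests cover counting error only and compare libraries.

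CELF1 binds RNA rich in U and G, with UGU as its core. In the nucleus it takes part in the choice of alternative exons, and in the cytoplasm its binding to 3' UTRs is linked to shortening of the poly(A) tail and decay of the mRNA. Heart and skeletal muscle depend on solute carriers for lactate, glucose and fatty acid entry, for calcium and pH control, and for the exchange of ADP, phosphate and aspartate across the inner mitochondrial membrane.

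The libraries differed in size, with 42263 clusters in 6857 genes in heart, 24844 in 5341 genes in muscle and 5115 in 2754 genes in C2C12. Summed over each list, the markers of heart, skeletal muscle and myoblasts held most clusters in the library of that label. The 10 heart markers held 367 clusters in heart, 5 in muscle and 1 in C2C12, with Nppa at 0 in all. Ryr2 alone held 252 of those in heart. The 10 skeletal muscle markers held 20, 130 and 0, with Mylpf at 0 in all. The 8 myoblast markers held 24, 8 and 44, with Myf5, Mki67 and Igf2bp3 at 0 in all. Hmga2 held 26 of those in C2C12, and Ccnd2 went the other way with 18, 4 and 1. Endothelial markers had 75 clusters in heart in 8 of 8 genes, 23 in muscle in 5 of 8, and 0 in C2C12. Adipocyte, macrophage, erythroid and Schwann cell markers had between 0 and 7 clusters for each list in each library. The part of these markers in the results was not tested. The paper gives the same rounded number of uniquely mapped, collapsed reads for heart and C2C12, and a lower one for muscle. How depth bears on the cluster counts was not tested. Numbers of reads in clusters were not used here. A gene may hold more clusters in 1 library through more binding, more transcript or more reads, and the cluster positions cannot tell these apart. The same holds for the number of cells of a type and the amount of RNA in each.

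The sequences under the clusters are shown first for the stretches that were covered in heart, muscle and C2C12 alike. There were 25 such stretches in 16 solute carrier genes, from 1 to 86 nt long with a median of 36 nt. Some are neighbouring pieces of 1 cluster, cut at the cluster edges of another library, so they are not 25 separate sites. Of these stretches, 22 lay in 3' UTRs, 3 in coding exons and 0 in introns, and 21 of the 25 held a UGU. The 4 without one were 1, 8, 13 and 16 nt long, the first too short to hold it. The 30 central nucleotides of the longest one are given for 8 genes with a stretch of at least 30 nt, on the transcribed strand, with coordinates on mm9. Every TGT (UGU in the RNA) is in capitals.
Slc6a6, 3' UTR, chr6:91706677-91706706, plus strand: tatttctggttgctctcgTGTtattttgag
Slc25a37, 3' UTR, chr14:69860405-69860434, minus strand: tttagcTGTGTGTGTGTGTGTGTGTGTGTg
Slc38a2, 3' UTR, chr15:96517855-96517884, minus strand: ggtttcaatgaaacaaTGTaTGTtTGTttt
Slc30a4, 3' UTR, chr2:122509710-122509739, minus strand: gccaTGTaTGTgcacagaagaactgaaata
Slc25a39, 3' UTR, chr11:102264484-102264513, minus strand: caggcagtatcttggccccattcattcctt
Slc29a1, 3' UTR, chr17:45722251-45722280, minus strand: tccccttgcccttcttccttcTGTgccTGT
Slc25a3, coding exon, chr10:90580862-90580891, minus strand: gaacgtacTGTtgaagcttTGTacaaattt
Slc3a2, coding exon, chr19:8782212-8782241, minus strand: tgcTGTtacagttccccttTGTggcctgat

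The 8 sites were of different make. The site of Slc25a37, which encodes the mitochondrial iron importer mitoferrin 1, was a run of TG repeats with 11 overlapping TGT. In Slc38a2, for a sodium-coupled neutral amino acid carrier, the central 30 nt held 3 TGT. The site of Slc25a39, whose product is needed for glutathione import into mitochondria, held 0 TGT in its central 30 nt and 1 in its whole 65 nt. Slc29a1 encodes an equilibrative nucleoside carrier and Slc30a4 a zinc exporter. Slc3a2 encodes the heavy chain that brings amino acid carriers such as Slc7a5 to the cell surface, and Slc25a3 the mitochondrial phosphate carrier. The Slc3a2 stretch is coding by its own midpoint, while none of the clusters of that gene in heart or muscle had its midpoint in a coding exon.

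Sites that differed between heart and muscle are shown for the 5 genes whose number of clusters differed in the per-gene test described further on. Each is the centre of the widest cluster that had no overlap in the other tissue, from heart for the first pair and from muscle for the rest.
Slc25a13, coding exon, chr6:6102451-6102480, minus strand: TGTgctccggatgcctTGTttatggtggcg
Slc12a7, 3' UTR, chr13:73952880-73952909, plus strand: actgagtTGTtccccattggcttcttTGTt
Slc8a3, intron, chr12:82405830-82405859, minus strand: tattgcTGTTGTcTGTTGTatgcaTGTgag
Slc38a4, intron, chr15:96878560-96878589, minus strand: tcTGTGTGTatccgTGTgagcctaTGTctt
Slc7a2, 3' UTR, chr8:42007134-42007163, plus strand: tttatttTGTtatTGTtaTGTttaatagca
The coding sites of Slc25a4, Slc16a1 and Slc6a6 that heart and muscle shared are given as well. In these tissues coding exons held a larger share of clusters in solute carriers than in other genes.
Slc25a4, coding exon, chr8:47292823-47292852, minus strand: ttggtatTGTatgatgagatcaaaaaatat
Slc16a1, coding exon, chr3:104457289-104457318, plus strand: cTGTTGTtgcaaatggagTGTgccatttgc
Slc6a6, coding exon, chr6:91702360-91702389, plus strand: ggctgggctggggcctggccctttcctcca
The intronic sites of Slc8a3 and Slc38a4 held 5 TGT each in 30 nt, while the coding sites shown held 3 for Slc16a1, 1 for Slc25a4 and 0 for Slc6a6. Slc6a6 had another coding cluster shared by heart and muscle, which held 4 UGU in each tissue.

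Solute carrier genes took a similar share of the clusters in every library. There were 612 clusters in 136 genes in heart, which is 1.45% of the library (exact 95% interval 1.34 to 1.57). Muscle had 375 in 98 genes, or 1.51% (1.36 to 1.67), and C2C12 had 72 in 49 genes, or 1.41% (1.10 to 1.77). The 3 intervals overlap. Of the 374 protein-coding solute carrier genes, 36.4% had a cluster in heart, against a background of 31.3% of all protein-coding genes. In muscle 26.2% had one, against 24.3%, and in C2C12 13.1%, against 12.5%. Muscle and C2C12 thus stood close to the background, whose value lies inside both intervals (21.8 to 31.0 and 9.85 to 16.9), and in heart the background lies just under the lower bound (31.5 to 41.5).

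Binding was spread over few clusters in most genes. The median bound solute carrier gene carried 3 clusters in heart, 2 in muscle and 1 in C2C12, and 35 of the 49 genes bound in C2C12 had a single cluster there. The 10 genes with most clusters held 28.4% of the solute carrier clusters in heart, 34.1% in muscle and 40.3% in C2C12. Heart and muscle without C2C12 was the commonest pattern, with 57 genes. A further 38 genes were bound in heart alone, 30 in all 3 libraries, 11 in heart and C2C12, 11 in muscle alone and 8 in C2C12 alone. As shares of the bound solute carrier genes, beside those of all bound genes, heart with muscle was 36.8% beside 34.2%, heart alone 24.5% beside 23.4% and all libraries 19.4% beside 22.7%. Heart with C2C12 was 7.10% beside 4.98%, muscle alone 7.10% beside 8.05% and C2C12 alone 5.16% beside 5.13%.

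**Figure D1:**
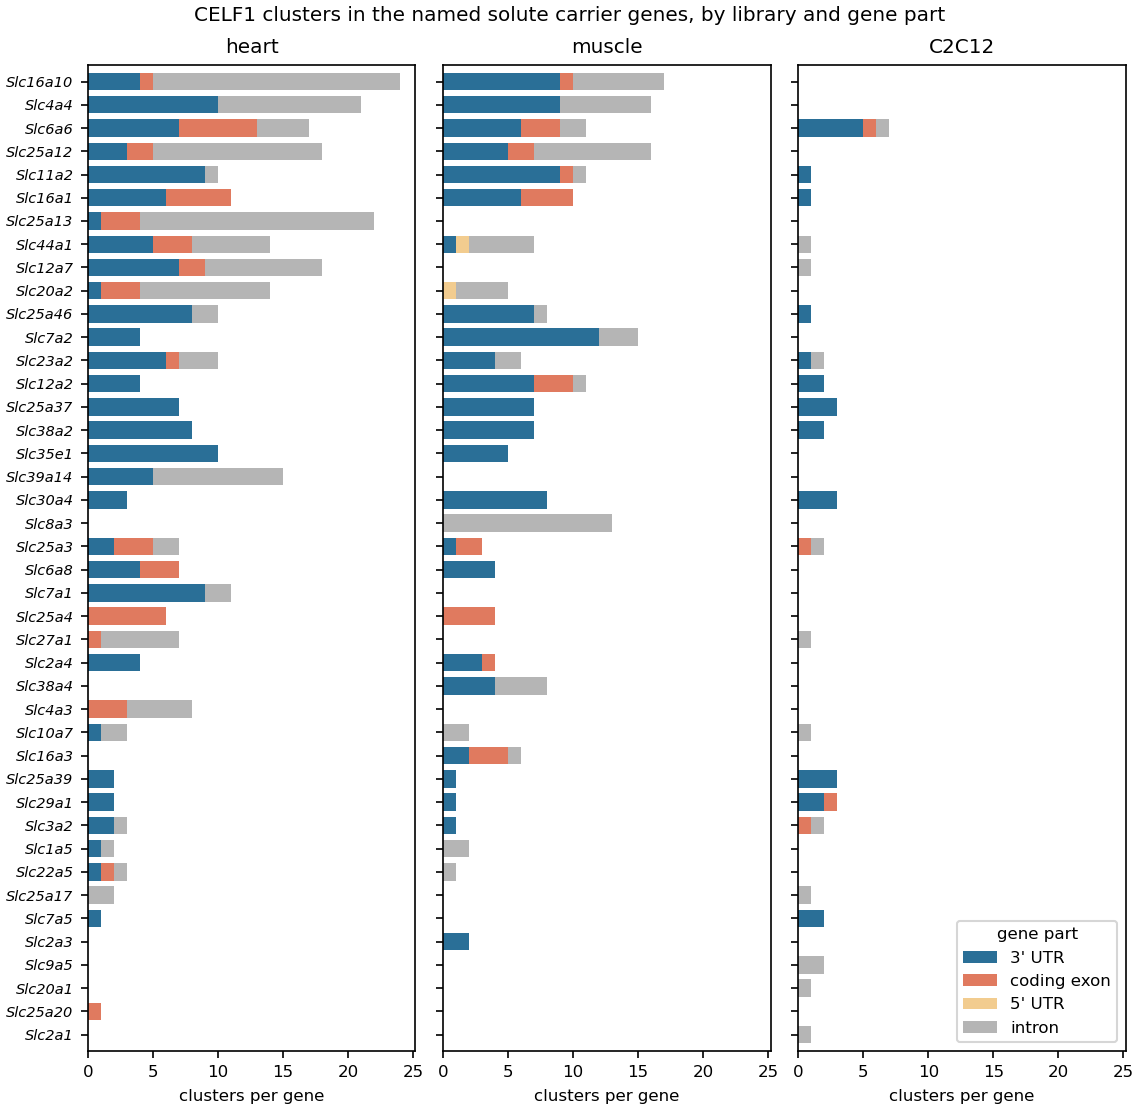
Number of CELF1 clusters per gene (x axis) in heart, muscle and C2C12 for the named solute carrier genes with a cluster, ordered by their summed clusters, with colours for the gene part; each bar is 1 library. Slc16a10, Slc4a4 and Slc25a12 have many clusters in heart and in muscle and 0 in C2C12, and the bars of Slc25a4 are wholly coding exon.

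The share of clusters in 3' UTRs and coding exons was higher, and that in introns lower, for solute carrier genes than for other genes in each library. These shares are set side by side with exact 95% intervals and were not compared by a test. In heart 45.9% of their clusters lay in 3' UTRs (41.9 to 50.0), against 32.8% for all other genes, and in muscle 58.9% (53.8 to 64.0), against 49.9%. In C2C12 the share was 54.2% (42.0 to 66.0), against 33.7%. Coding exons held 14.7% in heart (11.99 to 17.8) against 5.62% for other genes, 10.1% in muscle (7.27 to 13.6) against 4.49%, and 6.94% in C2C12 (2.29 to 15.5) against 3.77%. Introns held 38.6% in heart (34.7 to 42.5) against 59.0%, 30.4% in muscle (25.8 to 35.3) against 43.4%, and 38.9% in C2C12 (27.6 to 51.1) against 60.8%. The 5' UTR carried 5 clusters in heart, 2 in muscle and 0 of 72 in C2C12, for which the exact upper bound is 4.99%.

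In heart and muscle the intervals of the solute carriers leave out the value of the other genes for all 3 parts, and in C2C12 they do so for 3' UTRs and introns and not for coding exons. Clusters of 1 gene are not independent, so these intervals are too narrow. With each bound gene counted once, the mean 3' UTR share was 50.6% in heart against 39.1% for other genes, 56.6% in muscle against 51.3%, and 45.7% in C2C12 against 33.7%. The mean coding share was 14.8% against 8.16% in heart, 11.3% against 5.27% in muscle and 4.03% against 4.51% in C2C12, so that the order turned round in C2C12. Limited to clusters of 45 nt or wider, a choice made after seeing the data, the C2C12 library kept 23 solute carrier clusters, of which 87.0% lay in 3' UTRs and 8.70% in introns, beside 54.3% and 39.8% for other genes.

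**Figure D2:**
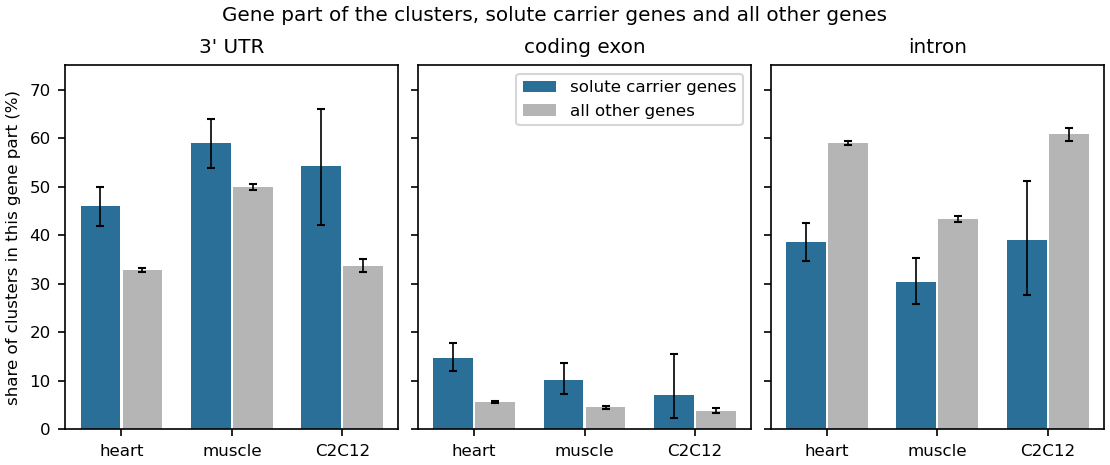
Share of clusters (%, y axis) in 3' UTRs, coding exons and introns for solute carrier genes and for all other genes in heart, muscle and C2C12; bars are shares and error bars exact 95% intervals of counting error. Solute carrier genes sit above the other genes in 3' UTRs and coding exons and below them in introns in each library.

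Coding sequence was not longer in the bound solute carriers than in other bound genes. The median bound solute carrier gene in heart had 1534.5 nt of coding sequence, 1606 nt of 3' UTR and 26653 nt of intron, beside 1593, 1547 and 32214 nt for other bound genes. Per kb of coding sequence there were 0.396 clusters in solute carriers and 0.168 in other genes in heart, 0.230 and 0.0991 in muscle, and 0.0579 and 0.0306 in C2C12. Per kb of 3' UTR the values were 0.959 and 1.03 in heart, 0.982 and 1.12 in muscle, and 0.339 and 0.288 in C2C12. Per kb of intron they were 0.0330 and 0.0524 in heart, 0.0222 and 0.0292 in muscle, and 0.0118 and 0.0131 in C2C12. Relative to length, solute carriers thus had more coding clusters and fewer intronic clusters than other genes, on pooled counts without intervals. In C2C12 this rests on only 5 coding and 28 intronic clusters. The 3' UTR density of solute carriers was below that of other genes in heart and muscle and above it in C2C12.

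Coding clusters were found in 52 solute carrier genes, 41 in heart, 21 in muscle and 5 in C2C12. Slc25a4 encodes the adenine nucleotide translocator of heart and muscle, which swaps ADP for ATP across the inner mitochondrial membrane. It carried 6 clusters in heart, 4 in muscle and 0 in C2C12, all in coding exons, and each of the 4 muscle clusters overlapped one of heart. Slc25a11, for the oxoglutarate carrier of the malate-aspartate shuttle, had 4, 2 and 0, again all coding. Slc16a1 encodes the monocarboxylate transporter MCT1, which carries lactate and pyruvate, and coding exons held 5 of the 11 clusters in heart and 4 of the 10 in muscle. Of 74 solute carrier genes with at least 5 clusters over the libraries, 3 had all of them in coding exons, namely Slc25a4, Slc25a11 and the zinc transporter gene Slc30a5. A further 13 had all of them in 3' UTRs, led by Slc25a37 with 17, Slc38a2 with 17 and Slc35e1 with 15, and 4 had all in introns, led by Slc8a3 with 13.

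Position within the parts was measured from transcript ends and exons. In 3' UTRs the median cluster lay 913 nt before the nearest downstream transcript end in heart, 930 nt in muscle and 721 nt in C2C12, beside 865, 825 and 654 nt for other genes. The median intronic cluster lay 2411.5 nt from an exon in heart, against 3684 nt for other genes, 2657.5 nt in muscle, against 2733.5 nt, and 1248.5 nt in C2C12, against 2515.5 nt. Intronic clusters within 300 nt of an exon were 17.4% of those in heart (12.8 to 22.8), against 12.4% for other genes, 17.5% in muscle (11.1 to 25.8), against 15.0%, and 28.6% in C2C12 (13.2 to 48.7), against 16.3%. The heart interval leaves out the value of the other genes and the remaining intervals hold it. Across the 155 genes, 3' UTR clusters per gene followed 3' UTR length with Spearman's rho of 0.49 in heart, 0.42 in muscle and 0.21 in C2C12, as a description over genes that share a library.

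UGU was present in 98.0% of the solute carrier clusters in heart, 98.4% in muscle and 86.1% in C2C12, against 98.3%, 98.4% and 86.4% for other genes. In the 3' UTR clusters of solute carriers alone it was present in 97.9% in heart, 98.2% in muscle and 89.7% in C2C12. For comparison with these, all windows of the median cluster width were scanned in the 3' UTRs of solute carriers with a 3' UTR cluster. A UGU was in 71.7% of the 55 nt windows for heart, 69.8% of the 52 nt windows for muscle and 60.9% of the 38 nt windows for C2C12. The longer motif UGUGUGU was found in 17.4% of the solute carrier 3' UTR clusters in heart (13.2 to 22.4), against 9.51% for other genes and 2.54% of the windows. In muscle it was in 14.5% (10.1 to 19.8), against 8.42% and 2.56%. In C2C12 it was in 7.69% (1.62 to 20.9), against 9.66% and 2.02%. UGUUUGU occurred in 9.96% of 3' UTR clusters in heart and 8.14% in muscle, with intervals that hold the 7.43% and 7.93% of other genes. Within coding exons UGUUUGU was in 8.89% of the heart clusters (3.92 to 16.8), against 3.85% for other genes and 1.14% of the coding windows. In muscle it was in 7.89% (1.66 to 21.4), against 5.28%, which the interval holds, and in C2C12 in 0 of 5, against 2.11%. Motifs were searched on the transcribed strand and may overlap each other, and a match is only a description of the sequence.

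Clusters per gene were then compared between heart and muscle by Fisher's exact test (two-sided) on each of the 7625 genes with a cluster in either library, adjusted over all of them by Benjamini-Hochberg. Of 147 solute carrier genes tested, 2 were higher in heart and 3 lower, which is 1.36% and 2.04%. The background over all genes was 0.944% higher and 0.852% lower. At an unadjusted p under 0.05 there were 6 higher and 8 lower. With 5 calls in all, these shares were not compared by a test.

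Slc25a13 was called higher in heart. It encodes citrin, a carrier that exchanges aspartate for glutamate across the inner mitochondrial membrane, and lies at chr6:5991219-6167173 on mm9. It carried 22 clusters in heart, 0 of 24844 in muscle and 0 of 5115 in C2C12, the last allowing a share of up to 0.0587% of clusters. Its share was 4.31-fold higher in heart than in muscle when 3 clusters were put in place of the 0 (Fisher's exact test, adjusted p = 0.00575). Of its 22 clusters 18 were intronic, 3 coding and 1 in the 3' UTR, and all 22 held a UGU, with 1 to 26 in each. Its close relative Slc25a12, which encodes the aspartate-glutamate carrier aralar, carried 18 clusters in heart, 16 in muscle and 0 in C2C12, with 13 and 9 intronic in heart and muscle.

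The second gene called higher in heart was Slc12a7, for the potassium-chloride cotransporter KCC4. It carried 18 clusters in heart, 0 in muscle and 1 in C2C12, a share at least 3.53-fold higher in heart than in muscle (exact test, adjusted p = 0.0225). In heart 9 were intronic, 7 in the 3' UTR and 2 coding. With clusters under 50 nt apart merged, 14 remained and the call was lost (exact test, adjusted p = 0.168). Limiting the test to clusters of 45 nt or wider left 13 and lost it too (exact test, adjusted p = 0.213).

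Slc8a3 was the gene with the smallest p among those lower in heart. It encodes NCX3, a sodium-calcium exchanger of skeletal muscle and brain, and carried 0 clusters in heart, 13 in muscle and 0 in C2C12. All 13 were intronic, between 35 and 113 nt wide, and each held 2 to 26 UGU. With 3 in place of the 0 in heart, its share was 7.37-fold lower in heart than in muscle (exact test, adjusted p = 0.000445). The other exchangers of the Slc8 and Slc24 families in the set, Slc8b1 with 3, 2 and 0 clusters and Slc24a3 with 1, 1 and 0, did not reach an unadjusted p of 0.05.

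The other genes called lower in heart were Slc38a4 and Slc7a2, both for amino acid carriers. Slc38a4, for the neutral amino acid carrier SNAT4, carried 0 clusters in heart, 8 in muscle and 0 in C2C12, with 4 in the 3' UTR and 4 in introns. With 3 in place of the 0 in heart, its share was 4.54-fold lower in heart (exact test, adjusted p = 0.0232). Slc7a2, for the arginine and lysine carrier CAT2, carried 4 clusters in heart, 15 in muscle and 0 in C2C12, and every one of the 4 in heart overlapped one in muscle. The ratio of its shares, heart over muscle, was 0.157 (exact interval 0.0378 to 0.492; adjusted p = 0.0251). That call was lost with merged clusters, where 4 and 11 were left (exact test, adjusted p = 0.234).

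Of the 5 called genes 4 had a 3' UTR cluster, and none of these 4 remained called in a test of 3' UTR clusters alone, in which 0 of 4892 genes were called in either direction. Several genes with large differences did not pass over all genes. Slc7a1, for the related cationic amino acid carrier CAT1, carried 11 clusters in heart, 0 in muscle and 0 in C2C12, 9 of them in the 3' UTR (exact test, adjusted p = 0.255). Slc39a14, for the zinc and iron importer ZIP14, had 15, 0 and 0 (exact test, adjusted p = 0.0843), and passed among genes with at least 5 clusters over both libraries (adjusted p = 0.0417). Slc4a3, for the anion exchanger AE3 of heart, had 8, 0 and 0 (exact test, adjusted p = 0.484). Slc16a3 encodes MCT4, the lactate exporter of fast muscle fibres, and had 0, 6 and 0 clusters (exact test, adjusted p = 0.102). Slc12a2, for the sodium-potassium-chloride cotransporter NKCC1, had 4, 11 and 2 (exact test, adjusted p = 0.178).

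**Figure D3:**
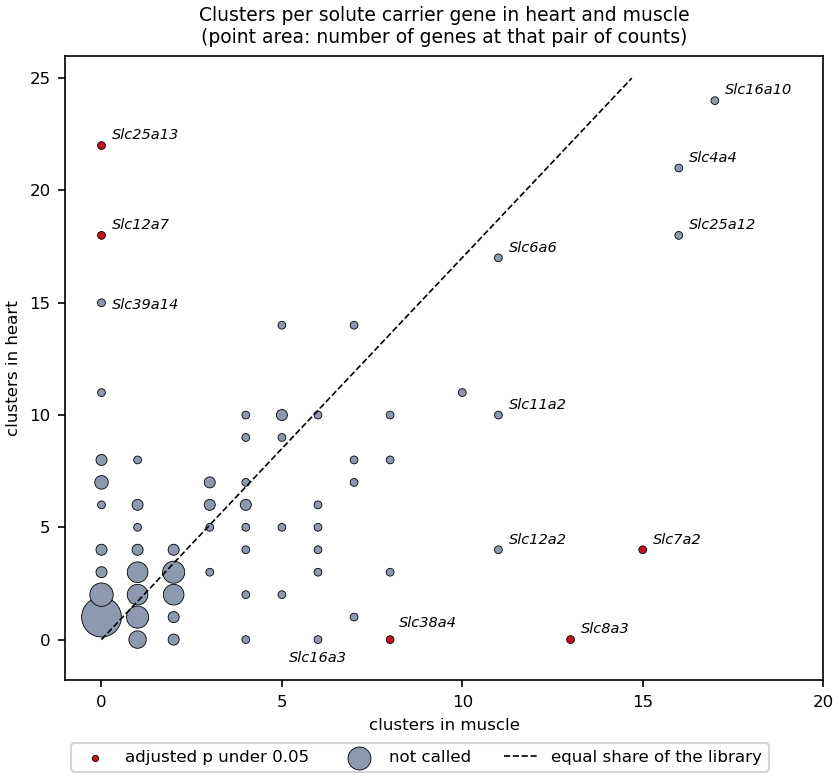
Clusters in heart (y axis) against clusters in muscle (x axis) for the 147 solute carrier genes with a cluster in either, where point area is the number of genes at that pair of counts, red marks an adjusted p under 0.05 and the dashed line an equal share of both libraries. Slc25a13 and Slc12a7 stand on the left edge at 22 and 18 clusters, and Slc38a4 and Slc8a3 on the lower edge at 8 and 13.

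No solute carrier gene was called between heart and C2C12, with 0 of 144 in either direction by the Fisher's exact test. The background was 0.176% of 7390 genes higher and 0.609% lower in heart. At an unadjusted p under 0.05 there were 0 higher and 8 lower. Between muscle and C2C12 it was 0 of 117, beside a background of 0.146% of 6153 genes higher and 0.569% lower in muscle, with 0 higher and 6 lower at an unadjusted p under 0.05. The small number of C2C12 clusters limits these tests: even Slc16a10, with 24 clusters in heart and 0 in C2C12, had an unadjusted exact p of 0.103.

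The genes with relatively many C2C12 clusters were few. Slc6a6, for the taurine carrier, carried 17 clusters in heart, 11 in muscle and 7 in C2C12, the most of any solute carrier there. The ratio of its shares was 0.294 for heart over C2C12 (exact interval 0.116 to 0.838; adjusted p = 0.339) and 0.324 for muscle over C2C12 (0.114 to 0.984; adjusted p = 0.512). Of its 7 C2C12 clusters 5 overlapped a heart cluster and 4 a muscle cluster. Slc25a39 and Slc29a1 had the same counts as each other, 2 in heart, 1 in muscle and 3 in C2C12. Slc9a5, for a sodium-proton exchanger, had 0, 0 and 2, both intronic, and Slc7a5, for the large neutral amino acid carrier LAT1, had 1, 0 and 2.

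The balance of 3' UTR against intron clusters within a gene was compared in the same way, so that the number of clusters per gene was held out. Among solute carriers 0 of 79 genes were called for heart over muscle, 0 of 41 for heart over C2C12 and 0 of 28 for muscle over C2C12 (Fisher's exact test over 4355, 2095 and 1845 genes, background 0% in each). At an unadjusted p under 0.05 there was 1, 0 and 0, beside 55, 14 and 19 of all genes tested. That gene was Slc16a10, for a carrier of aromatic amino acids, which had 4 clusters in the 3' UTR and 19 in introns in heart, against 9 and 7 in muscle (exact test, unadjusted p = 0.0172, adjusted p = 1). Most genes held too few clusters for this test to call them. Against C2C12 the smallest p of a solute carrier was that of Slc25a51 (exact test, unadjusted p = 0.143). The counts of 0 thus do not tell whether the balance differed.

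By kind of cargo, mitochondrial carriers of the Slc25 family held the most clusters in heart and muscle. Of 48 annotated genes 27 were bound, with 135 clusters in heart, 75 in muscle and 14 in C2C12. In heart 61 of these lay in 3' UTRs, 53 in introns and 21 in coding exons, and in muscle 48, 16 and 11. Slc25a46, for an outer membrane protein of mitochondrial dynamics, had 10, 8 and 1 clusters, and Slc25a3 had 7, 3 and 2. Slc25a51, for the mitochondrial NAD carrier, had 6, 6 and 1. Slc25a20, the carnitine-acylcarnitine carrier, had 1, 0 and 0, and Slc25a5, for the adenine nucleotide translocator of most other tissues, had 0 in every library.

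Amino acid carriers, which held the most in C2C12, had 26 of 67 genes bound and 101 clusters in heart, 64 in muscle and 17 in C2C12. Slc38a2, for SNAT2, had 8, 7 and 2 clusters, all in the 3' UTR. Slc6a8, for the creatine carrier, had 7, 4 and 0, and Slc3a2 had 3, 1 and 2. Slc1a5, for the glutamine carrier ASCT2, had 2, 2 and 0. The group took 16.5% of the solute carrier clusters in heart, 17.1% in muscle and 23.6% in C2C12.

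Carriers of fuels and their products differed in which gene was bound. Slc2a4 encodes GLUT4, the insulin-regulated glucose carrier of heart and muscle, and carried 4 clusters in heart, 4 in muscle and 0 in C2C12, with 3 positions shared between the tissues, all in the 3' UTR. Slc2a1, for GLUT1, had 0, 0 and 1, and Slc2a3, for GLUT3, had 0, 2 and 0. Slc16a1 had 11, 10 and 1. Slc27a1, for the fatty acid carrier FATP1, had 7, 0 and 1, and Slc22a5, for the carnitine carrier OCTN2, had 3, 1 and 0. None of these 6 genes was called in any comparison.

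Ion and metal carriers included Slc4a4, for the sodium bicarbonate cotransporter NBCe1, with 21 clusters in heart, 16 in muscle and 0 in C2C12. Of the muscle clusters 11 overlapped one in heart. Phosphate carriers were represented by Slc20a2 with 14, 5 and 0 and by Slc20a1 with 0, 0 and 1. Slc11a2, for the iron importer DMT1, had 10, 11 and 1, and the iron exporter gene Slc40a1 had 5, 6 and 0. Zinc carriers had 15 of 25 genes bound and 49, 20 and 7 clusters. In 12 families, among them the nucleoside carriers Slc28 and the sugar carriers Slc45, no gene had a cluster.

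**Figure D4:**
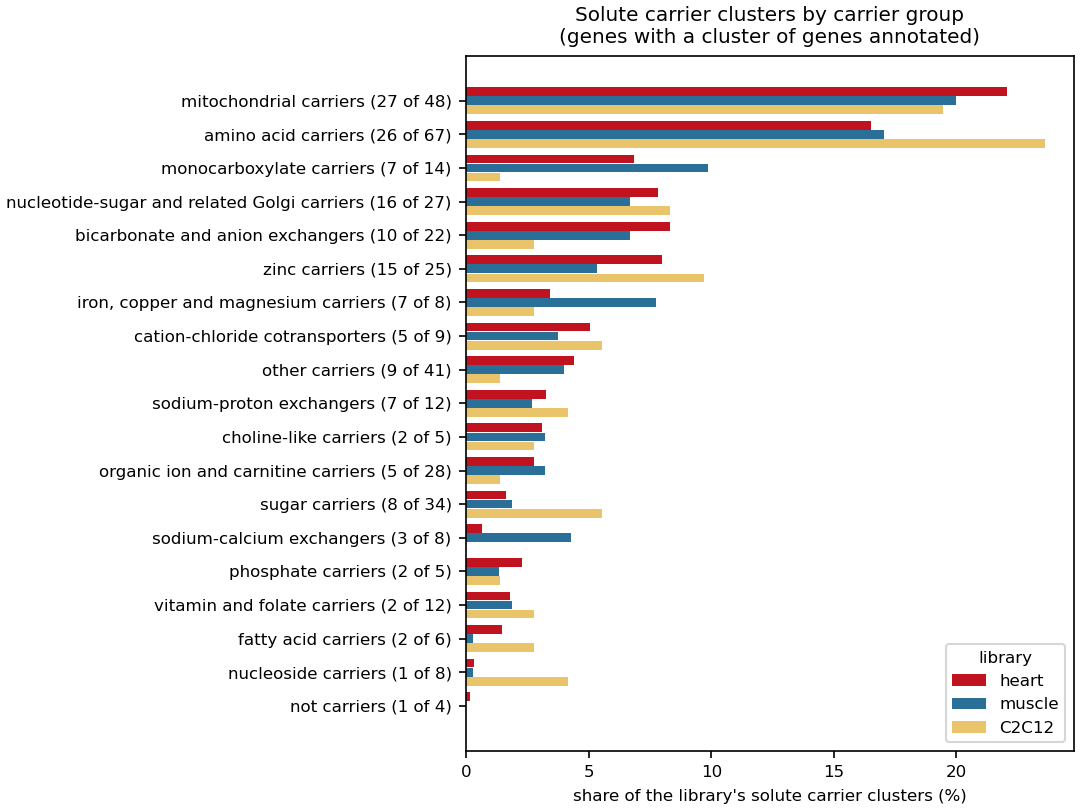
Share of each library's solute carrier clusters (%, x axis) by carrier group for heart, muscle and C2C12, with the number of genes with a cluster and of genes annotated behind each name. Mitochondrial carriers lead in heart, at 22.1%, and in muscle, and amino acid carriers lead in C2C12 at 23.6%.

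Positions shared between libraries were counted as clusters that overlap one of the other library by at least 1 bp on the same strand. Such shares depend on how many clusters the other library holds, which was 42263 in heart, 24844 in muscle and 5115 in C2C12. Of the solute carrier clusters of heart, 30.7% were also in muscle (27.1 to 34.5), against 30.9% for other genes, and of those of muscle 50.4% were also in heart (45.2 to 55.6), against 52.8%. Of the C2C12 clusters 47.2% were in heart (35.3 to 59.3), against 33.7%, and 31.9% were in muscle (21.4 to 44.0), against 24.9%. Sharing differed by gene part, and so did cluster density, at 0.959 per kb of 3' UTR and 0.0330 per kb of intron for solute carriers in heart. How density bears on sharing was not tested. In 3' UTRs 60.2% of the muscle clusters were in heart (53.4 to 66.7), and 74.4% of the C2C12 clusters were (57.9 to 87.0), beside 60.9% and 58.9% for other genes. In coding exons 63.2% of the muscle clusters were in heart (45.99 to 78.2), beside 49.1%. In introns it was 28.1% for muscle (20.1 to 37.3) and 7.14% for C2C12 (0.877 to 23.5). Other genes had 43.8% and 20.3% in introns, and the first of these lies outside the interval of the solute carriers. In these directions the values of other genes for 3' UTRs and coding exons lie inside. Of the heart clusters in 3' UTRs 47.7% were in muscle (41.7 to 53.7), against 54.0% for other genes, which lies outside. For heart introns it was 13.6% (9.46 to 18.6), against 19.0%, again outside, and for coding exons 24.4% (16.0 to 34.6), against 23.5%. Of the 114 intronic muscle clusters 0 were in C2C12 (upper bound 3.18%), against 3.28%. With overlap of 50% of both clusters required, 22.2% of the C2C12 clusters were in heart and 15.3% in muscle.

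The shared positions of single genes are given for heart clusters that overlapped one of muscle. Slc4a4 shared 13 of its 21 heart clusters with muscle, and Slc6a6 shared 9 of 17. Slc16a1 shared 8 of 11 and Slc25a12 7 of 18. Slc12a2 shared all 4 of its heart clusters with muscle, Slc16a10 shared 8 of 24, and Slc25a13 and Slc12a7 had no muscle cluster to share.

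**Figure D5:**
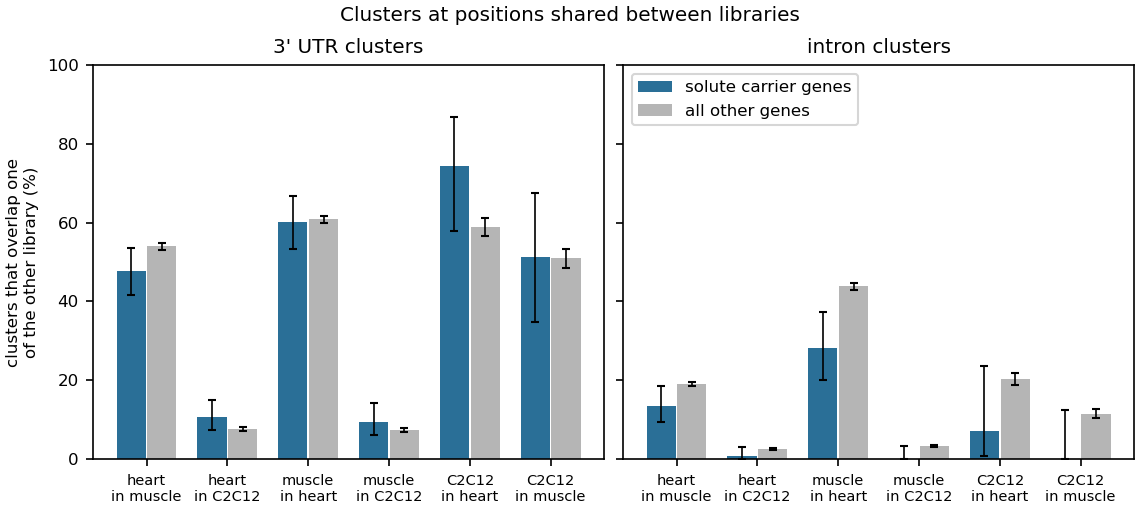
Share of clusters (%, y axis) that overlap a cluster of the other library, for 3' UTR and intron clusters and for each ordered pair of libraries, in solute carrier genes and all other genes; error bars are exact 95% intervals of counting error. In 3' UTRs solute carriers reach 74.4% for C2C12 clusters in heart, and in introns they sit at 28.1% for muscle clusters in heart. Shares depend on the number of clusters in the other library.

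Proteins that control solute carriers were looked at as a list of 24 genes that are not carriers, of which 19 had a cluster, with 223 clusters in heart, 152 in muscle and 20 in C2C12. In heart 19 of the 24 had a cluster, beside 31.3% of all protein-coding genes, in muscle 15, beside 24.3%, and in C2C12 7, beside 12.5%. In heart over muscle 1 was called higher and 1 lower, beside 0.944% and 0.852% of all 7625 genes tested. These shares were not compared by a test. Stk39 encodes SPAK, the kinase that phosphorylates Slc12 cotransporters, and carried 34 clusters in heart, 0 in muscle and 3 in C2C12 (exact test, adjusted p = 5.75e-05). Tbc1d1, for a Rab regulator of GLUT4 traffic in muscle, had 11, 28 and 1 (exact test, adjusted p = 0.00181). The WNK kinase gene Wnk1, upstream of SPAK, had 30, 18 and 3 (exact test, adjusted p = 1), and Tbc1d4, the relative of Tbc1d1, had 18, 10 and 0 (exact test, adjusted p = 1). Bsg, for the chaperone of MCT1 and MCT4, had 3, 0 and 0 (exact test, adjusted p = 0.978).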

How the data were processed

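The deposited files give 1 list of CELF1 clusters per library, called by the authors separately for heart, muscle and C2C12. Per the labels and the methods, the authors collapsed identical reads, removed adapters, and mapped unique reads to mm9 with Bowtie and TopHat, versions not given in the sources used here. Each deposited entry holds a start, end, strand and Entrez gene ID, and a constant value of 1e-06 that was not used. Widths were 35 to 126 nt. Such cluster calling corrects for gene expression only as far as its model does, and repeated sequence is lost with unique mapping.

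Gene IDs were named from a RefSeq table (GRCm38.p6 names only). The rule picked 155 gene IDs, all matched to GENCODE vM1 models on NCBIM37, the build of mm9, 6 of them by synonym. Gene part was set by cluster midpoint, in the order 3' UTR, coding exon, 5' UTR, intron, from protein-coding transcripts. 5 clusters of Slc5a3 are also listed under Mrps6, and 14 solute carrier clusters lie over another gene of the same strand, among them those of Slc35a3.

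Clusters per gene were compared by Fisher's exact test over all genes with Benjamini-Hochberg adjustment at 0.05. On simulated libraries for heart over muscle the test called 199 of 200 genes changed 8-fold and 0 of 6674 unchanged genes. The changed genes were drawn only from those with many clusters over both libraries, and counts were drawn independently. The result thus does not give the power for solute carrier genes with few clusters, nor the false calls where clusters are not independent. Shares have exact Clopper-Pearson 95% intervals, which are for counting error only, and a count of 0 is bounded with 3 clusters. Folds against a count of 0 put 3 in its place and take the other count as exact, so they are not 95% limits. Genes named are those called, the 6 with most 3' UTR or intron clusters in each library, the 3 with most coding clusters, those with a stretch common to all libraries, and a list of muscle-relevant carriers, of which 1 is not reported here. Slc24a3, Slc8b1, Slc25a11, Slc25a51, Slc30a5, Slc40a1, Slc4a1ap and Slc9a3r2 fall outside that rule and were chosen after their values were seen. Members and lists were chosen with earlier results of these data known. Tests ran in scipy 1.17.1 and tables in pandas 2.3.3 under Python 3.11.15 with numpy 2.4.6, sequences were read by pysam 0.24.0 and samtools 1.23.1, and plots drawn in matplotlib 3.10.9. Alternatives covered cluster width, merging, transcript choice, overlap and the denominator.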

Additional observations from a re-analysis of the deposited data

How the results depend on the processing

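No paired analysis was possible because each source has 1 library and the labels give no replicate numbers. Depth per cluster is unknown, and the 5115 clusters of C2C12 limit every comparison with it. A minimum width of 30 nt removed no cluster. Under the other alternatives 100 values of the main results stayed within a tolerance of 1.5 times for a count and of the exact 95% interval for a share, and 26 did not.

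For heart over muscle the genes called higher, 2 as reported, were 3 of 69 among genes with at least 5 clusters over both libraries, where Slc39a14 gained a call (exact test, adjusted p = 0.0417). They were 1 with merged clusters, 1 at 45 nt or wider, and 0 both with 3' UTR clusters only and over genes bound in both libraries. Among all genes, those called higher were 95 of 3771 with at least 5 clusters and 57 of 7625 with merged clusters. At 45 nt or wider they were 56 of 6639, with 3' UTR clusters only 0 of 4892, and over genes bound in both 43 of 4573. Solute carrier genes called lower stayed at 3 with at least 5 clusters and at 45 nt or wider. Genes called lower, 3 as reported, were 2 with merged clusters, 0 with 3' UTR clusters only and 1 over genes bound in both. This last setting by construction leaves out genes with a count of 0 such as Slc25a13, Slc12a7, Slc8a3 and Slc38a4. Among all genes, those called lower were 90 of 3771 with at least 5 clusters and 36 of 7625 with merged clusters. At 45 nt or wider they were 60 of 6639, with 3' UTR clusters only 0 of 4892, and over genes bound in both 28 of 4573. With the longest transcript alone the 3' UTR share was 41.2% in heart and 53.1% in muscle. With each gene counted once it was 50.6% in heart, where the intron share was 33.2%.

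Requiring at least 2 clusters left 99 bound genes of 136 in heart, 65 of 98 in muscle and 14 of 49 in C2C12. With 50% reciprocal overlap, the share of clusters also found elsewhere was 24.7% for heart in muscle, 2.61% for heart in C2C12, 40.3% for muscle in heart, 2.93% for muscle in C2C12, 22.2% for C2C12 in heart and 15.3% for C2C12 in muscle. Clusters of 45 nt or wider, a limit chosen after seeing the data, gave 16 bound genes in C2C12, a 3' UTR share of 87.0% and an intron share of 8.70% there, an intron share of 24.9% in muscle, and UGU in 100% of the C2C12 clusters. With them 3.86% of heart clusters were in C2C12, and 73.9% and 60.9% of C2C12 clusters were in heart and in muscle. Over all genes, 3' UTR clusters alone gave 0 calls higher and 0 lower for heart over muscle, where all clusters gave 72 and 65.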

Other observations

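Other transporter families lay beside the solute carriers by name and were counted for context. Of 15 annotated organic anion transporter genes of the Slco family, 3 had clusters, with 42 in heart, 34 in muscle and 0 in C2C12. Their heart clusters were 13 in 3' UTRs, 4 in coding exons and 25 in introns. Of 50 ATP-binding cassette genes of the A to G subfamilies, 23 had clusters, with 105 in heart, 71 in muscle and 7 in C2C12, and 24 of the heart clusters lay in coding exons. Slc8a1, which was left out of the set, carried 111 clusters in heart, 14 in muscle and 3 in C2C12.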
